A study of Mus musculus with 58 samples.

Results

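The 9 genes described here, taken by symbol from the count table, make, use or cleave NAD in control and diabetic mouse retinas. They were Nampt, Nmnat1, Nmnat2, Nmnat3, Sarm1, Sirt1, Sirt3, Sirt6 and Parp1, which are 9 of the 52459 symbols in the table, and all 9 were among the 19120 genes that passed the expression filter (a median above 4 normalized counts over all libraries). NAD is a redox cofactor that is also consumed as a substrate, so cells rebuild it continuously from nicotinamide: NAMPT makes nicotinamide mononucleotide, and the NMNAT enzymes turn it into NAD in the nucleus (NMNAT1), in axons and the Golgi (NMNAT2) and in mitochondria (NMNAT3). Sirtuins use NAD to deacetylate proteins, PARP1 uses it to build poly(ADP-ribose) chains at damaged DNA, and SARM1 cleaves it in degenerating axons, where NMNAT2 holds SARM1 in check. In retina the pathway is known for the dependence of photoreceptors on NAMPT and for inherited blindness caused by NMNAT1 mutations, and in several tissues Nampt is a target of the circadian clock and SIRT1 a partner of it.

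The controls (C57/BL/6 in the labels) were male littermates without hyperglycemia, and the diabetic mice (C57BL/6-Ins2Akita/J) were heterozygous males, in which misfolded insulin 2 damages the beta cells of the pancreas and blood glucose rises. All mice were 4 months old, had lived under 12 h of light and 12 h of darkness and were perfused before the retinas were removed, and the labels name no treatment. Ribosomal RNA was depleted from total RNA before sequencing. The control group had 30 libraries, with 5, 6, 5, 5, 5 and 4 at ZT1, ZT5, ZT9, ZT13, ZT17 and ZT21, and the diabetic group had 28, with 5, 5, 5, 4, 4 and 5, with ZT (zeitgeber time) counted in hours from lights on. Each library is a biological replicate by the study's description, and each time point was sampled from other mice, so a daily profile is an average over animals. Night retinas were taken under dim red light.

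Libraries held from 7773117 to 22147398 counted reads. The tissue label held in the markers: rod markers together had from 480563 to 736787 normalized counts in every library, blood markers had at most 175, and pigment epithelium markers, which belong to the layer behind the retina, ranged from 317 to 4240. In 3 control libraries (replicate 6 at ZT1, 5 at ZT17 and 2 at ZT21) the 5 lens markers summed to 27055, 18599 and 21230 normalized counts, against at most 556 in the other libraries. The member calls between genotypes and of rhythm are therefore also given without those 3. In whole retina, fewer cells of a type and less RNA per cell cannot be told apart.

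Per kilobase of exon the 9 genes covered a wide range of levels. Sarm1 was highest, with 25.2 ± 2.68 RPKM (reads per kilobase of exon, scaled to library size, SD, n = 30) in control and 24.8 ± 2.33 (n = 28) in diabetic retinas. Next came Parp1 with 14.1 ± 1.13 and 14.0 ± 1.10 RPKM, and then Sirt1 (median over all libraries 10.8 RPKM), Nmnat2 (10.3) and Nampt (10.2). Those last 3 lay within each other's spread: Sirt1 was above Nmnat2 in 34 of 58 libraries, and Nmnat2 above Nampt in 35. Sirt6 followed at a median of 6.06 RPKM and Sirt3 at 3.94. The least abundant were Nmnat1, at 2.08 ± 0.256 RPKM in control retinas, and Nmnat3, at 0.828 ± 0.181, and in all 58 libraries Sirt3 was above Nmnat1 and Nmnat1 above Nmnat3. Among the enzymes of the last step of NAD synthesis, the transcript of the axonal NMNAT2 was thus the most abundant per length. Nmnat3 rested on few reads, with a median of 57.5 in control and 64 in diabetic libraries, and Nmnat1 on a median of 95 and 87, so their values carry more counting error than those of the other members.

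**Figure D1:**
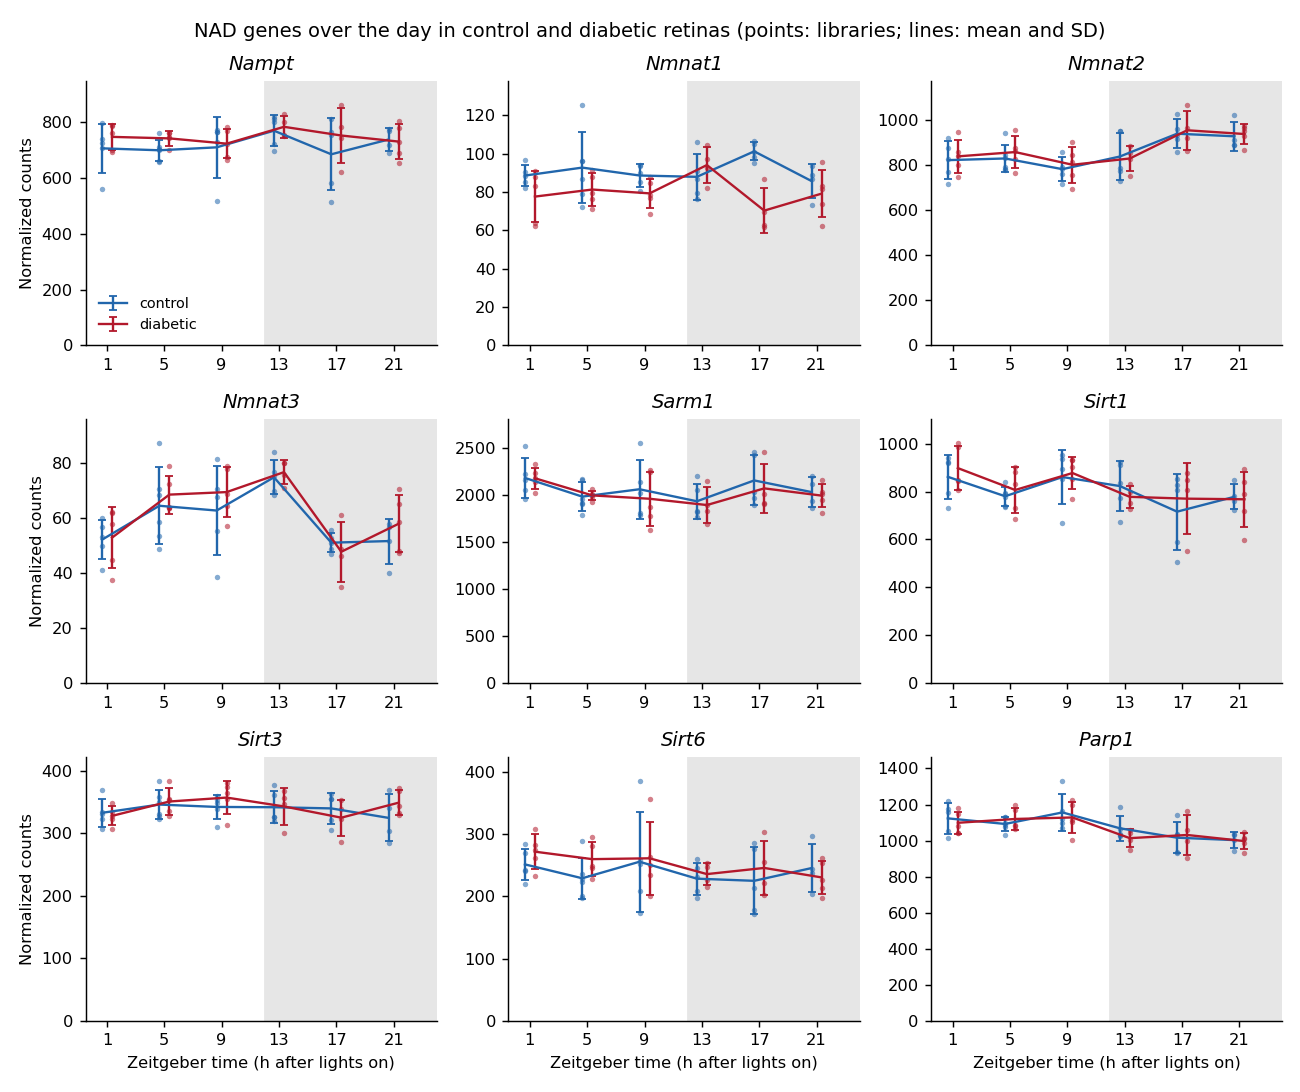
Normalized counts (y axis, from 0) of the 9 genes by zeitgeber time (x axis, hours after lights on, night shaded) in control (blue) and diabetic (red) retinas, with 1 point per library and lines at the mean ± SD of 4 to 6 libraries. The profiles of the 2 genotypes overlap in 8 panels, Nmnat3 is highest at ZT13 and low at ZT17, and Nmnat1 separates at ZT17.

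The first question was whether diabetes changed these transcripts. Over all time points, 1 of the 9 members passed the threshold, where 2.99% of all genes tested did (572 of 19120), and that member was Nmnat1, the nuclear enzyme of the last step of NAD synthesis. Nmnat1 ranged from 72.4 to 125 normalized counts in control retinas, with a median of 90.2, and from 61.9 to 105 in diabetic retinas, with a median of 81.8. The 2 groups overlapped over most of their range, although 22 of 28 diabetic libraries lay under the control median. The means were 91.1 ± 11.2 (SD, n = 30) and 80.2 ± 11.7 (n = 28), which gave a log2 fold change of -0.19 ± 0.05 (SE), or -12.2%, with an adjusted p = 0.0346 by edgeR's quasi-likelihood test with Benjamini-Hochberg adjustment over all genes. Of all genes, 1.41% were called lower and 1.58% higher in diabetic retinas.

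This call was close to the threshold. It was lost when any 1 of 4 libraries was left out, which were control replicate 4 at ZT5 (edgeR adjusted p = 0.0580), diabetic replicates 4 and 5 at ZT17 (0.0536 and 0.0566) and diabetic replicate 4 at ZT21 (0.0555), and without the 3 libraries rich in lens markers (0.0554), while the log2 fold change stayed between -0.20 and -0.17. Over the other alternatives fitted with edgeR the adjusted p ran from 0.0107 without the ZT13 libraries to 0.320 without those of ZT17, and the call was also lost with no filter on low counts (0.0611) and without ZT1, ZT5, ZT9 or ZT21 (0.0776 to 0.102). Of the 11 lists of cell type markers, 3 held a gene that was lower in diabetic retinas by the same test, where 1.41% of all genes were. These were 1 of 2 tested for lens, 1 of 3 for cones and 1 of 3 for microglia, and no list held a gene that was higher. The 3 libraries rich in lens markers were all controls, and whether the lens call rests on them was not tested. The part of these cells in the Nmnat1 result was not tested either, other than that the log2 fold change of Nmnat1 was -0.19 without those 3 libraries.

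At single time points, Nmnat1 was lower on average in diabetic retinas at 5 of the 6. The widest gap was at ZT17, in the middle of the night. There the control libraries held 95.2, 98.5, 101, 105 and 106 normalized counts, and the diabetic libraries 61.9, 62.6, 69.8 and 87.0. These 2 groups did not overlap. The log2 fold change was -0.53 ± 0.13 (SE), or -30.6%, but with an edgeR adjusted p = 0.0508 it did not pass the threshold. At ZT13, the time point before, the order was the other way, with 76.2, 79.4, 86.8, 91.1 and 106 in control and 82.2, 92.4, 97.3 and 105 in diabetic libraries, and a log2 fold change of 0.11 ± 0.13. The remaining time points had log2 fold changes from -0.20 at ZT5 to -0.13 at ZT21, each with a 95% interval that included 0. Without the ZT17 libraries the log2 fold change over the other time points was -0.12 (edgeR adjusted p = 0.320), and a test of whether the genotype difference of Nmnat1 varied over the 6 time points gave an unadjusted p = 0.0364 and an edgeR adjusted p near 1.

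**Figure D2:**
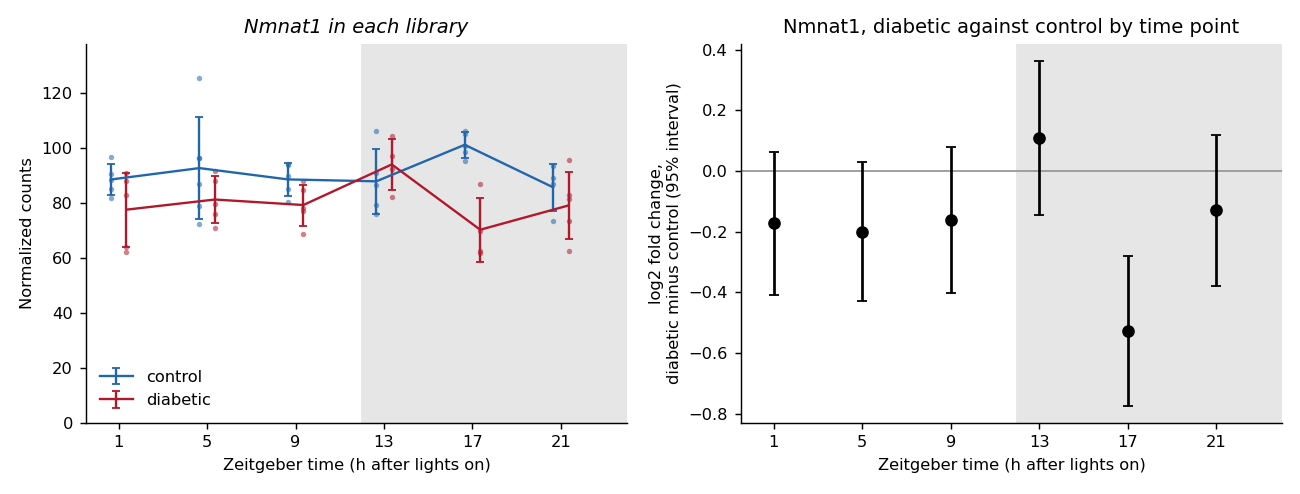
Nmnat1 by zeitgeber time (x axes, hours, night shaded): left, normalized counts of each library in control (blue) and diabetic (red) retinas with the mean ± SD; right, the log2 fold change of diabetic against control at each time point with its 95% interval. The diabetic mean is 70.3 against 101 at ZT17, and above the control mean at ZT13.

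In all, none of the 54 member comparisons at single time points passed the threshold in the main edgeR fit. The share of all genes called there was 0.167% at ZT17, 0.0209% at ZT5, 0.0105% at ZT1 and 0.00523% at ZT9, and 0% at both ZT13 and ZT21. One had an unadjusted p under 0.05 in that fit, Nmnat1 at ZT17. Of all 19120 genes, from 852 at ZT13 to 1686 at ZT17 had one. The same comparison was called by DESeq2 (adjusted p = 0.0163), which called 88 genes at ZT17 against 32 with edgeR. With a replicate block, an alternative described below, Nmnat1 at ZT17 also passed (edgeR adjusted p = 0.0361). That block raised the calls over all genes and time points from 39 to 74. Without the 3 libraries rich in lens markers, 1 of them in this comparison, its log2 fold change was -0.53 and its edgeR adjusted p = 0.0901, and with no filter on low counts the latter was 0.141. In fits that dropped 1 library each, its edgeR adjusted p ranged from 0.0107 without diabetic replicate 1 at ZT17 to 0.327 without diabetic replicate 5 at ZT17, and it was past the threshold in 11 of 58 fits.

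The other members of NAD synthesis did not differ detectably. Nampt, the rate-limiting enzyme of the salvage of nicotinamide, had 717 ± 81.7 normalized counts (SD, n = 30) in control and 745 ± 55.2 (n = 28) in diabetic retinas, and its log2 fold change of 0.06 had a 95% interval from -0.02 to 0.13 (edgeR adjusted p = 0.536). The interval was from -0.05 to 0.10 for Nmnat2 and, with fewer reads, from -0.10 to 0.22 for Nmnat3. Changes of the size seen for Nmnat1 thus lie outside the intervals of Nampt and Nmnat2 but, for an increase, inside that of Nmnat3.

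The NAD consumers did not differ detectably between genotypes either. Sarm1, the NAD hydrolase of axon degeneration, had 2053 ± 222 normalized counts in control and 2014 ± 191 in diabetic retinas (log2 fold change -0.03, 95% interval -0.10 to 0.05). For Parp1, the main poly(ADP-ribose) polymerase, the interval was -0.08 to 0.04. Among the sirtuins, the mitochondrial Sirt3 had the narrowest interval, from -0.04 to 0.07, the nuclear deacetylase Sirt1 one from -0.07 to 0.13, and Sirt6, a chromatin-bound sirtuin, one from -0.04 to 0.19, which reaches an increase of the size of the Nmnat1 difference. Sirt3 lies 1.80 Mb from Ins2, the gene that carries the Akita mutation, on chromosome 7 (140863666 to 140882309, GRCm38). Its exons share 418 and 342 bases with Ric8a and Psmd13 on the opposite strand, and those of Sirt1 share 65 with Gm16145. Since the strand setting of the read counting is not given in the sources used here, how reads in these stretches were assigned or dropped is not known. The edgeR adjusted p-values of the 8 members other than Nmnat1 ranged from 0.536 to 0.886, and the median log2 fold change of the 9 members was 0.03.

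**Figure D3:**
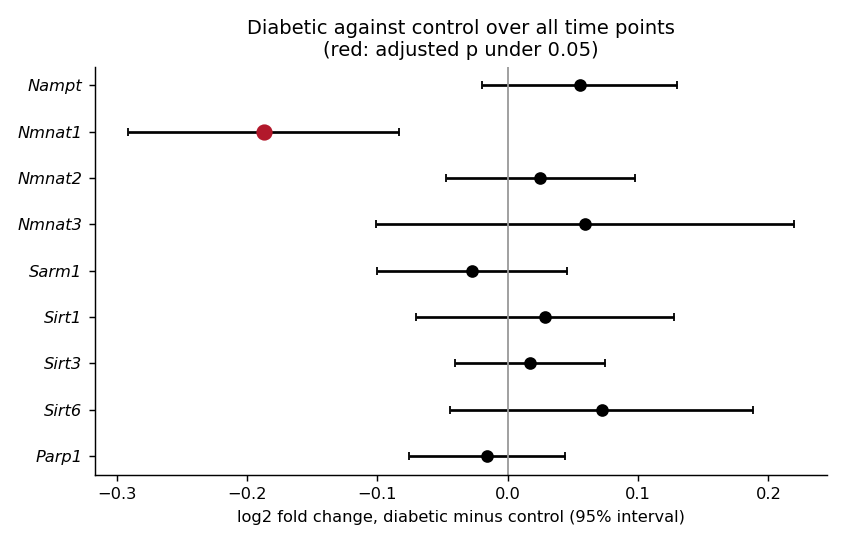
The log2 fold change of diabetic against control retinas over all time points (x axis) for each gene, with its 95% interval. The interval of Nmnat1 (red, -0.29 to -0.08) lies below 0, and those of the other 8 genes include 0.

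The same comparison was made for 75 further genes in 6 lists: other NAD synthesis genes, NAD transport and NADP genes, other NAD-consuming enzymes, genes of ADP-ribose handling with partners of PARP1, the NMNAT2 and SARM1 axon degeneration pathway, and clock genes. Of these, 65 were expressed. In the first list 10 of 15 did not pass the filter, among them Ido1, Tdo2 and Qprt of the route that makes NAD from tryptophan. Over all time points, 2 of the 65 changed, and both rose. This is 3.08%, a share near the 2.99% of all genes. Parp3, which attaches ADP-ribose at DNA breaks, rose from 58.1 ± 11.2 normalized counts (SD, n = 30) to 72.5 ± 15.9 (n = 28), a log2 fold change of 0.32 ± 0.08 (SE, edgeR adjusted p = 0.0112). Cry2, a repressor of the clock, rose from 2065 ± 158 to 2231 ± 182, a log2 fold change of 0.11 ± 0.03 (edgeR adjusted p = 0.0211). Both calls were kept without any single library and without the 3 rich in lens markers (edgeR adjusted p = 0.00952 and 0.0299), but Parp3 was lost without ZT1, ZT17 or ZT21 (0.0708 to 0.0810) and Cry2 without ZT5, ZT13, ZT17 or ZT21 (0.0573 to 0.163). The other 17 NAD-consuming enzymes tested, all 11 genes of ADP-ribose handling and all 12 of the axon degeneration pathway did not pass the threshold, and their lists had median log2 fold changes of 0.03, -0.01 and 0.01. No list gene was called at a single time point.

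The second question was whether these transcripts cycled over the day, and whether they did so alike in both genotypes. By the empirical JTK_CYCLE test within a genotype (unadjusted p under 0.05, with the highest library over 25% above the lowest), 3 members were rhythmic in control retinas, where 21.8% of all genes were, and 3 in diabetic retinas, where 23.9% were. They were the same 3 in both: Nmnat2, Nmnat3 and Parp1. In a cosine fit over both genotypes these 3 again passed (edgeR adjusted p under the threshold), where 31.3% of all genes did, and the share of members, 33.3%, was near that of all genes.

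Nmnat3, the mitochondrial NMNAT, had the widest daily swing. At ZT13, just after lights off, its control libraries held 68.4, 69.6, 75.3, 76.5 and 83.8 normalized counts and its diabetic ones 70.7, 75.7, 80.0 and 80.0. At ZT17, 4 h later, control libraries held 46.9, 48.8, 50.9, 52.7 and 55.6, and diabetic ones 34.7, 46.3, 48.6 and 61.2. All libraries of ZT13 were above all libraries of ZT17, in both genotypes. The mean at ZT13 was 1.47 times that at ZT17 in control and 1.61 times in diabetic retinas. The fitted amplitude was 17.2% of the mean in both genotypes, ± 5.04 (SE, n = 30) among controls and ± 4.52 (n = 28) among diabetic mice, with acrophases at ZT9.96 ± 1.05 h and ZT9.35 ± 1.04 h (SE). These fitted peaks lie before the highest mean, which was at ZT13 in both genotypes. The lowest mean came at ZT17, a fall that a 24 h cosine does not follow. The unadjusted p was 0.0165 and 0.00224, and after Benjamini-Hochberg adjustment over all genes Nmnat3 passed in diabetic retinas (adjusted empirical JTK_CYCLE p, from permutation, of 0.0286, where 10.3% of all genes passed) and no member did in control retinas, where 8.23% of all genes passed. These adjusted calls turned with single libraries. Nmnat3 in diabetic retinas was lost without replicate 1, 3 or 5 at ZT5 or 1 or 2 at ZT9 (0.0502 to 0.0560), without ZT1, ZT5 or ZT13 (0.0678 to 0.121) and with no filter on low counts (0.0569). Parp1 in diabetic retinas passed without replicate 2 at ZT9 or 3 or 5 at ZT17 (0.0231 to 0.0484), Nmnat2 there without replicate 3 at ZT1 or ZT9 (0.0493 and 0.0422), and Nmnat3 in control retinas without replicate 5 at ZT9 (0.0230). Under other alternatives Parp1 in diabetic retinas passed with TMM-scaled CPM (0.0263) and by the edgeR cosine test (0.0498), Nmnat2 in control retinas by that test (0.0418) and without ZT13 (0.0494), and Nmnat3 in control retinas without ZT9 (0.0344).

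Nmnat2, the short-lived NMNAT of axons, peaked at night. Its control libraries held 855, 913, 933, 959 and 1026 normalized counts at ZT17, against 715, 759, 780, 789 and 858 at ZT9. In diabetic retinas the values were 861, 920, 964 and 1064 at ZT17, against 692, 752, 810, 843 and 901 at ZT9. The night values were mostly higher, with a slight overlap in each genotype. The amplitude was 8.34% ± 2.24 (SE) of the mean in control and 7.59% ± 2.21 in diabetic retinas, with acrophases at ZT19.1 ± 1.02 h and ZT19.5 ± 1.14 h and unadjusted p-values of 0.0129 and 0.0110.

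Parp1 peaked by day. At ZT9 its control libraries held 1068, 1097, 1118, 1164 and 1333 normalized counts, and at ZT21 940, 1002, 1032 and 1036. Diabetic libraries held 1005, 1105, 1111, 1195 and 1226 at ZT9, against 928, 987, 1010, 1015 and 1045 at ZT21. The control groups did not overlap, and among the diabetic ones the lowest at ZT9 lay within the range of ZT21. Amplitudes were 5.85% ± 1.85 (SE) of the mean in control and 6.44% ± 1.78 in diabetic retinas, the acrophases were ZT6.71 ± 1.21 h and ZT5.85 ± 1.05 h, and the unadjusted p-values 0.0209 and 0.00708.

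Over both genotypes the edgeR adjusted p was 0.000300 for Parp1, 0.000310 for Nmnat3 and 0.000355 for Nmnat2, and all 3 kept their call when any single library or time point was left out, and without the 3 control libraries rich in lens markers. The 3 calls in control retinas alone were also kept without those libraries. Within 1 genotype the calls were less stable, and 26 of 36 remained with 1 time point left out. Parp1 in control retinas was lost without replicate 4 or 5 at ZT17 (unadjusted empirical JTK_CYCLE p, from permutation, of 0.0544 each), and with the fold taken between time point means only Nmnat3 kept its call.

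**Figure D4:**
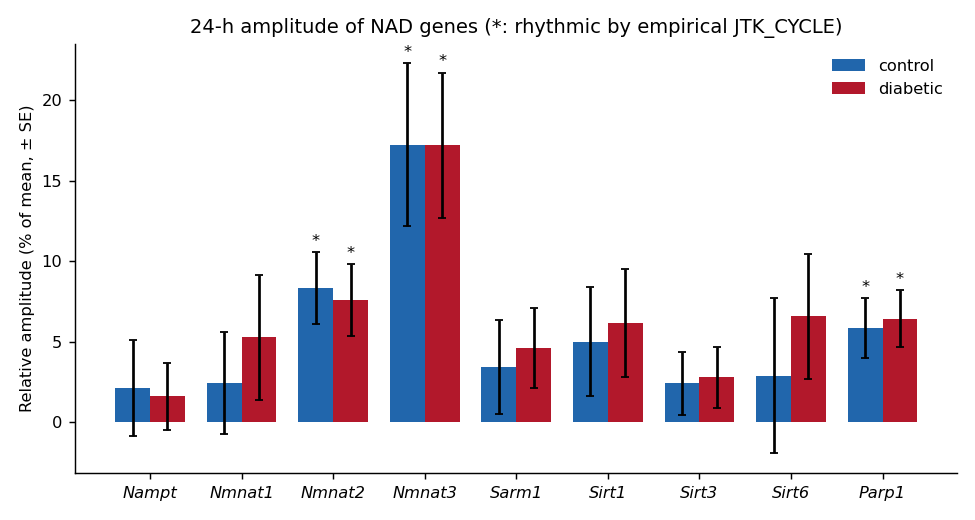
Relative 24 h amplitude (y axis, percent of the mean, from a cosine fit, ± SE) of each gene in control (blue, n = 30) and diabetic (red, n = 28) retinas, with asterisks at genes rhythmic by the empirical JTK_CYCLE test. Nmnat3 reaches 17.2% in both genotypes, Nmnat2 and Parp1 lie between 5.85% and 8.34%, and the other bars are within 2 SE of 0.

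The remaining 6 members were not called rhythmic in either genotype or over both. For Nampt, the clock target of other tissues, the cosine fit gave 2.15% ± 2.99 (SE) of the mean for control and 1.62% ± 2.07 for diabetic retinas (unadjusted p = 0.291 and 0.660). Over both genotypes the upper limit of its amplitude was 5.52% (95% interval), which is below the fitted 6.04% of Parp1. In diabetic retinas alone the limit of 5.89% was also below the 6.44% of Parp1, but in control retinas it was 8.29%, above the 5.85% of Parp1. Nampt had its highest mean at ZT13 in both genotypes, at 770 ± 55.8 (SD, n = 5) and 784 ± 39.4 (n = 4) normalized counts, and its lowest at ZT17 in control (685 ± 129) and at ZT9 in diabetic retinas (723 ± 52.5). Those differences are smaller than the spread among control libraries at ZT17, which ran from 514 to 811.

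Sirt1 had a fitted amplitude of 5.40% ± 2.32 (SE) over both genotypes with an acrophase at ZT5.49 ± 1.66 h, and its edgeR adjusted p was 0.133. It passed when the ZT5 libraries were left out (0.0199). Sarm1 was highest on average at ZT1 and lowest at ZT13 in both genotypes, with fitted amplitudes of 3.45% ± 2.90 (control) and 4.59% ± 2.48 (diabetic), and in diabetic retinas it missed the threshold narrowly (unadjusted p = 0.0546) and passed it in 7 of 28 fits without 1 library. Over both genotypes, Sirt3 had an amplitude of 2.56% ± 1.31, Sirt6 of 4.51% ± 3.09 and Nmnat1 of 2.93% ± 2.54. The upper limits of the 95% intervals were 10.7% for Sirt6, 10.04% for Sirt1, 8.02% for Nmnat1 and 7.62% for Sarm1, so an amplitude like that of Parp1, 6.04% over both genotypes, lies inside the intervals of these 4 and outside those of Nampt and Sirt3 (5.19%). These limits are approximate for amplitudes close to their SE, and they leave out the error of the Parp1 amplitude. Within single genotypes the upper limit of Sirt3 was 6.37% in control and 6.64% in diabetic retinas, which includes the amplitude of Parp1 in each.

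The rhythms did not differ detectably between genotypes. With edgeR, none of the 9 members passed the test of a difference in the cosine terms, where 0% of all genes did, and none had an unadjusted p under 0.05 (0.511 to 0.982); DESeq2 called none as well. The acrophase difference, diabetic minus control, was -0.61 ± 1.48 h (SE) for Nmnat3, 0.42 ± 1.53 h for Nmnat2 and -0.86 ± 1.61 h for Parp1, so a shift of 1 h lies within the error of each. The ratios of diabetic to control amplitude for these were 1.00, 0.91 and 1.10.

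The 5′ flanks of all 9 members, with 2 start sites each for Nmnat1, Sirt3 and Sirt6, were searched for the E-box, CACGTG, the element that CLOCK and BMAL1 bind. Those of the 3 rhythmic members are shown because the results on rhythm turn on them, and that of Sirt1 because it and Parp1 hold the element. Each is the 250 bases before the RefSeq start site on the gene's strand in GRCm38.p6, 5′ to 3′, with E-boxes in capitals.
Parp1, chr1:180568641-180568890, plus strand: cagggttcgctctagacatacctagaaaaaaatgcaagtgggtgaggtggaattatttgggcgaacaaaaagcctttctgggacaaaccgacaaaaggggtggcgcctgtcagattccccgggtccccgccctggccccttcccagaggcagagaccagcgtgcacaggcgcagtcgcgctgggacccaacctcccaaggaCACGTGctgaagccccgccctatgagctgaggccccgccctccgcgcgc
Sirt1, chr10:63339036-63339285, minus strand: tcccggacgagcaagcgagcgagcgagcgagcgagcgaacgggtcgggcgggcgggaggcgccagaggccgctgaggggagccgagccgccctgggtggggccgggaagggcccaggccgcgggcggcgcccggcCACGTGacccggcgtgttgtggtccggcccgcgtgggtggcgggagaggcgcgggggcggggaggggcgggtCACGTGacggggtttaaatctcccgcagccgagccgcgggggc
Nmnat2, chr1:152954851-152955100, plus strand: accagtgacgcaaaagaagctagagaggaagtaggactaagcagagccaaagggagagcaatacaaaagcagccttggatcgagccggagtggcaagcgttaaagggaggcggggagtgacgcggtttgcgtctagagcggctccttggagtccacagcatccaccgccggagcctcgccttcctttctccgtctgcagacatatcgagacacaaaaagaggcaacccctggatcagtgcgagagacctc
Nmnat3, chr9:98296320-98296569, plus strand: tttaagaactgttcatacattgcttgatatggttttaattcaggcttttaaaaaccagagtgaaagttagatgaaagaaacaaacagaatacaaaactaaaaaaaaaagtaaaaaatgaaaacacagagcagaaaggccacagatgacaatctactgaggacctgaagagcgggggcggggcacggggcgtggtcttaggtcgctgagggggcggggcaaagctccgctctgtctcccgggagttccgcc

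Parp1 has 1 E-box, which begins 49 bases before the start, and Sirt1 has 2, at 115 and 43 bases. Nmnat2, Nmnat3 and the other 5 members have none in these windows, and 6.02% of the 32851 promoters in the table hold at least 1. The E′-box CACGTT, searched on both strands and unable to fill the same bases as CACGTG, was in 3.85% of promoters, and the D-box TTATGTAA in 0.819%, and neither was in a window of a member. The letters are a description of these windows, and their part in the rhythms was not tested.

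The same cosine test was read for the 65 expressed genes of the 6 lists. In all, 29 of 65 were rhythmic over both genotypes (44.6%, against 31.3% of all genes), and 27 without the 3 libraries rich in lens markers. In ADP-ribose handling and PARP1 partners, 6 of 11 were rhythmic, and all 6 had acrophases by day, from ZT3.80 to ZT7.77, as Parp1 did. Oard1, which removes ADP-ribose from proteins, had an amplitude of 7.89% ± 1.30 (SE) of the mean and an acrophase at ZT4.49 ± 0.639 h (edgeR adjusted p = 2.16e-05). Adprhl2, a hydrolase of ADP-ribose on serine, peaked at ZT6.43 ± 0.701 h with 8.50% ± 1.54, and Chd1l, a chromatin remodeler recruited by poly(ADP-ribose), at ZT6.79 ± 0.713 h with 6.48% ± 1.20. Of all rhythmic genes, 51.4% had their acrophase by day and 48.6% by night.

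Among other NAD-consuming enzymes 8 of 18 were rhythmic (44.4%, against 31.3% of all genes). Of these, 5 had day and 3 night acrophases, where 51.4% of all rhythmic genes had theirs by day. The acrophase of Parp3, at ZT23.1 ± 1.22 h, lay within its SE of lights on. Its call was lost in 10 of 58 fits without 1 library and without the libraries rich in lens markers. It was also lost without ZT9, ZT13 or ZT21, with no filter on low counts, and with time as 6 levels in place of a cosine. Parp10, a mono-ADP-ribosyltransferase, had an amplitude of 16.1% ± 2.95 (SE) and peaked at ZT8.42 ± 0.699 h, Parp12, of the same kind, peaked at ZT8.52 ± 0.743 h, and Sirt7, the nucleolar sirtuin, at ZT5.66 ± 0.822 h with 8.88% ± 1.88.

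In the NMNAT2 and SARM1 axon degeneration pathway 4 of 12 were rhythmic, which is 33.3% and near the 31.3% of all genes. Of the 4 fitted acrophases 3 lay by night, as did 48.6% of those of all rhythmic genes, and the side of the other, Map3k12, is not determined. Stmn2, a microtubule regulator of axons, peaked at ZT19.0 ± 0.833 h with an amplitude of 8.90% ± 1.92 (SE), and Mapk10, the neuronal JNK3, at ZT19.9 ± 0.897 h with 5.58% ± 1.31. Map3k12, the upstream kinase DLK, peaked at ZT23.9 ± 1.10 h, within its SE of lights on, with 3.91% ± 1.14, and was lost without diabetic replicate 3 or 4 at ZT13 or 5 at ZT1, without ZT1, ZT9 or ZT13, and with no filter on low counts. Mapk10 was lost without ZT9, ZT17 or ZT21. Of the 4, 3 were left without the libraries rich in lens markers. Of NAD transport and NADP genes 3 of 7 were rhythmic (42.9%, against 31.3% of all genes), and each of these calls was lost under some alternative. Their fitted acrophases were by night: Nadk, the cytosolic NAD kinase, at ZT19.4 ± 1.10 h, its mitochondrial counterpart Nadk2 at ZT14.0 ± 0.994 h, and Slc25a51, the carrier of NAD into mitochondria, at ZT19.0 ± 1.02 h. The call of Slc25a51 was lost in 13 of 58 fits without 1 library and without the libraries rich in lens markers. It was also lost without ZT5, ZT13, ZT17 or ZT21, with no filter on low counts, and with time as 6 levels in place of a cosine. The call of Nadk was lost without ZT5, ZT9 or ZT17, and that of Nadk2 without ZT13. In NAD synthesis beyond the 9 members, 1 of 5 was rhythmic, Nmrk1, the nicotinamide riboside kinase, at ZT5.46 ± 1.05 h with 9.09% ± 2.45, a call lost without ZT17. Of the clock genes 7 of 12 were rhythmic (58.3%, against 31.3% of all genes). Ciart, a repressor of CLOCK and BMAL1, had 40.3% ± 3.46 with an acrophase at ZT9.38 ± 0.324 h. Dbp, an output factor, followed at ZT9.98 ± 0.580 h and Per2 at ZT14.2 ± 0.852 h.

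**Figure D5:**
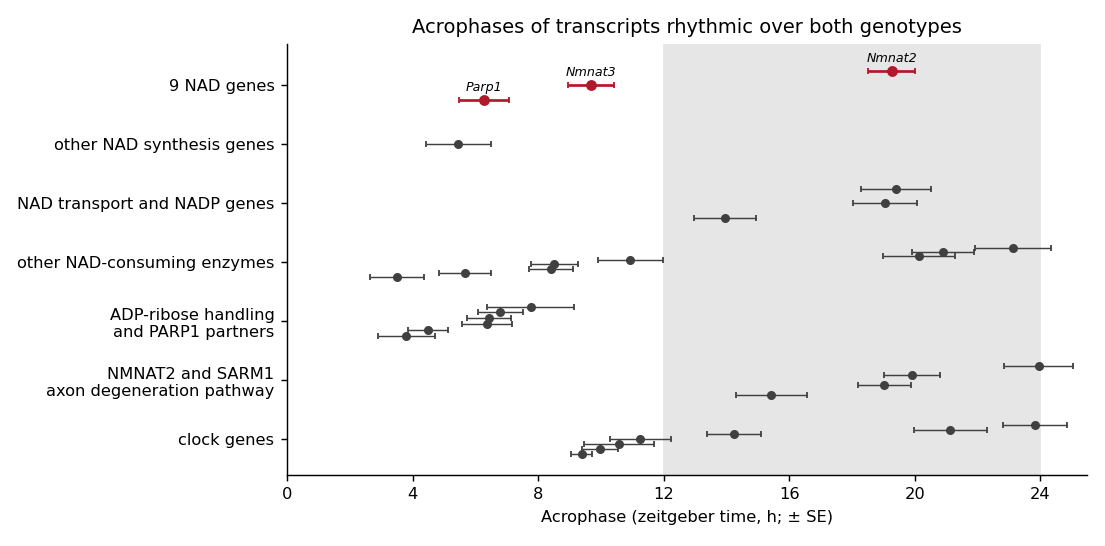
Acrophases (x axis, zeitgeber time in hours, ± SE, night shaded) of the transcripts rhythmic over both genotypes: the 3 rhythmic members in red, and below them the 29 list genes in 6 rows, 1 point per gene. The 6 genes of ADP-ribose handling lie by day around Parp1, and of the 4 genes of the axon degeneration pathway 3 lie by night and Map3k12 at ZT23.9, within its SE of lights on.

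Some cell type markers also moved with the time of day. Summed over its 4 markers, pigment epithelium had a mean of 744 normalized counts at ZT5 and 2946 at ZT21, and 3 of the 4 were rhythmic over both genotypes by the same edgeR test, which 31.3% of all genes passed. All 3 bipolar cell markers were rhythmic, with mean sums of 11003 at ZT9 and 14871 at ZT17, the same times as the lowest and highest means of Nmnat2. Of ganglion cell markers 2 of 6 passed, of cone and of amacrine cell markers 2 of 3 each, of rod markers 1 of 5, of Muller glia and of endothelium 1 of 3 each, of lens 1 of 2 tested and of microglia none. Without the 3 libraries rich in lens markers, lens had none and ganglion cells 3, and the counts of the other lists were the same. Their highest and lowest time points differed by factors of 1.16 for ganglion, 1.07 for cone, 1.10 for amacrine, 1.06 for rod, 1.18 for Muller glia and 1.27 for endothelial markers, and by 159.9 for lens markers with those 3 libraries included. The part of these differences in the rhythms of the members was not tested.

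The genes with profiles most like those of Nampt and Parp1 were taken by Pearson's correlation of the 12 group means of log2 CPM, among 10273 other genes with a mean of at least 10 CPM, as a description. For Nampt they were Morf4l1 (r = 0.93), Scn7a (0.91), Lcor (0.90), C130071C03Rik (0.86) and Rgs17 (0.86). Parp1, the member with the smallest p in the test of rhythm over both genotypes, was most like Gnl2 (r = 0.97), Zbtb49, Atg16l1, BC027072 and Anapc7 (0.96 each). Among members, Parp1 was most like Sirt1 (r = 0.78) and least like Nmnat2 (r = -0.82), and Nampt had its highest correlation with Sirt6 (r = 0.23) and its lowest with Sarm1 (r = -0.55), with Nmnat1 and Nmnat3 below 10 CPM and not compared. These 12 means come from the same libraries and share their depth and composition.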

How the data were processed

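The authors aligned the reads of each retina with STAR 2.7.4a to GRCm38.p5 and counted them per gene with HTSeq 0.11.1, by the submitters' processing notes. The deposited table holds these raw counts for 52459 symbols, with no normalization, no filter and 1 column per library, and no column was left unassigned. The counting's strand setting is not given in the sources used here. Genes with a median above 4 normalized counts (DESeq2 1.42.0 size factors) over all libraries were kept.

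Genotypes were compared with edgeR 4.0.16 (R 4.3.3; TMM, quasi-likelihood test, Benjamini-Hochberg adjustment over 19120 genes, adjusted p under 0.05), with genotype as the only factor for all time points together and with 12 groups for single ones. Rhythm over both genotypes, and its difference between them, were tested on the 24 h cosine and sine terms in edgeR. Within a genotype the empirical JTK_CYCLE test was re-implemented in Python 3.11.15 (numpy 2.4.6, numba 0.67.0) with 30 waveforms of 24 h and 1000000 shuffled series. Amplitudes and acrophases came from least squares on normalized counts. RPKM used exon lengths of Gencode M21. Intervals of fold changes are normal 95% intervals, and counts limit the precision of the rarer genes. The scripts were tested on simulated data.

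Alternatives were DESeq2's size factors and test, no filter, a replicate block, other rhythm tests, and fits without each library, each time point or the 3 libraries rich in lens markers, the last chosen after seeing the data. The members and lists were chosen with earlier results of these data known. All 9 members are named. Of the lists, genes past a threshold between genotypes and the 3 with the smallest p for rhythm over both are named. All 113 pairs of replicates differed beyond the sampling noise.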

Additional observations from a re-analysis of the deposited data

Results flagged for a closer look

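In each of the 108 groups of 4 to 6 libraries, 1 for each gene, genotype and time point, the highest and lowest library were set against the others with Dixon's test at the 95% level. It marked 3 groups (2.78%), where chance marks about 1 in 20. Nampt was at 517.4 normalized counts in control replicate 4 at ZT9, while the other 4 libraries lay between 729.6 and 771. That library also held the highest Sarm1, Sirt6 and Parp1 values of its group (2551, 386 and 1333) and the lowest Sirt1 value (671), which were not marked. Nmnat2 was at 1019.1 in control replicate 4 at ZT21, against 886.4 to 908.6 in the other 3. Parp1 was at 1186.6 in control replicate 3 at ZT13, against 1023 to 1064.4 in the other 4. None of the members differed between genotypes in rhythm after adjustment, and leaving out any of these 3 libraries changed no call of these genes.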

How the results depend on the processing

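Nmnat1 was no longer called over all time points (0 members, against 1) with no filter on low counts, without the libraries of ZT1, ZT5, ZT9, ZT17 or ZT21, and without the 3 libraries rich in lens markers, an alternative chosen after seeing the data. The count was 0 to 1 with each library left out. Over all genes the 572 calls became 919 with time point as a term and 322, 267, 357, 239 and 225 without ZT1, ZT5, ZT9, ZT17 and ZT21, with 431 to 611 without single libraries. At single time points the 0 member calls became 1 with DESeq2 and ranged from 0 to 1 without single libraries, and the 39 calls over all genes became 133 with DESeq2 and ranged from 10 to 106. Members rhythmic in control retinas fell from 3 to 0 with adjusted p-values, to 1 with the fold between time point means and to 1 without ZT9, ZT17 or ZT21 (2 to 3 without single libraries), and over all genes from 4172 to 1573, 2532 and, without ZT17, 2691. In diabetic retinas adjusted p-values and the fold between means left 1 member each (3 to 4 without single libraries), and 1967 and 2710 of 4565 genes. Rhythm over both genotypes kept its 3 members in all fits, with Sirt1 added without ZT5, and with 3139 of 5980 genes without ZT17. A difference in rhythm was called for 0 members in all fits, and over all genes for 3 without the filter, 1 without ZT1 and 0 to 1 without single libraries. Of 3949 fold changes of members called neither as reported nor under the alternative, 74 had the other sign, and no called one turned. The cause of these changes was not tested. Low read numbers limit Nmnat3 and Nmnat1 most.

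Replicate numbers were checked as pairs: same-numbered control and diabetic libraries of a time point had a median correlation of deviations of 0.126 over 26 pairs (-0.028 for other numbers). Only 15 of the 26 were above 0.1 and the labels name nothing shared by a number, so the numbers were not taken as pairs, although 26 of 52 libraries correlated best with their own number, a hint from the data that some may share a source. With the replicate block, the members called were 1 over all time points, 1 at single time points (Nmnat1 at ZT17, edgeR adjusted p = 0.0361), 3 for rhythm over both genotypes, 3 in control and 4 in diabetic retinas, where Sirt6 was added (unadjusted p = 0.0439). With the block, the edgeR adjusted p of rhythm also passed for Nmnat2 and Nmnat3 in control (0.0402 and 0.0470) and Parp1 in diabetic retinas (0.0424). Over all genes the block gave 509, 74, 6389, 5145 and 5343 calls.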

Other observations

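Genes around Nmnat1 were read after its values had been seen. Nmnat1 lies on the minus strand of chromosome 4, from 149467572 to 149485202 (GRCm38), and 26 bases separate its start from that of Lzic, which is read the other way. Lzic had 239 ± 23.6 normalized counts (SD, n = 30) in control and 230 ± 26.4 (n = 28) in diabetic retinas, a log2 fold change of -0.05 ± 0.04 (SE, edgeR adjusted p = 0.596). Ube4b, a ubiquitin ligase downstream of Nmnat1, had a log2 fold change of 0.01 ± 0.03. Of the neighbours within 150 kb, 9 were tested, and 2 were called (2.99% of all genes were, 1.41% as lower), both lower in diabetic retinas and both annotated antisense to Ube4b. The first, Ube4bos1, fell from 325 ± 42.5 to 235 ± 43.0 normalized counts, a log2 fold change of -0.47 ± 0.06 (edgeR adjusted p = 2.09e-07), and the second, Ube4bos3, from 18.4 ± 5.44 to 13.6 ± 3.74 (-0.44 ± 0.11, edgeR adjusted p = 0.0193). Since the strand setting of the counting is not given, reads of these transcripts and of Ube4b cannot be told apart with certainty. Whether they have a part in the Nmnat1 result was not tested.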
